A study of Homo sapiens with 12 samples.

Results

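The genes described here encode the oxidative phosphorylation system, and they were followed in human liver cancer cell lines after knockdown of ARD1 (NAA10), the catalytic subunit of the N-terminal acetyltransferase NatA. Members were all genes listed in both deposited count tables that are either protein-coding genes of the mitochondrial genome or protein-coding nuclear genes whose symbols belong to the subunit families of complexes I to V. NDUFAF assembly factors were left out by that rule. It found 102 members among the 22730 genes common to both tables, 13 on the mitochondrial genome and 89 in the nucleus. Of the nuclear members, 37 belong to complex I, 8 to complex II, 10 to complex III, 16 to complex IV and 18 to complex V. The complex II set holds 4 subunits and 4 SDHAF assembly factors that share the SDHA prefix, and the complex V set holds the read-through gene ATP5MF-PTCD1.

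Complexes I and II feed electrons from NADH and succinate into ubiquinone, complex III passes them to cytochrome c, and complex IV hands them to oxygen. Complexes I, III and IV pump protons, and complex V uses the gradient to make ATP. The mitochondrial genome is read as long polycistronic transcripts that are cut into single mRNAs, whereas the nuclear subunits are transcribed one by one and imported, so the complexes need products of both genomes. Liver tissue is rich in mitochondria and depends on this system for its ATP.

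RNA was sequenced from 4 groups of 3 libraries of Hep-3B and Huh-7, established human hepatoma lines. The groups were cells labelled Hep-3B with siARD1, cells labelled Hep-3B with a negative control siRNA, Huh-7 cells with siARD1, and Huh-7 cells with a negative control siRNA. Control groups were thus transfected too. The labels do not say whether the 3 libraries of a group came from separate cultures, so p-values measure the spread between these libraries, which may be technical.

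Libraries held about 17327600 to 25960200 counts. NAA10 had 10.9, 15.6 and 14.4 CPM (counts scaled to library size by the trimmed mean of M values) in siARD1 libraries labelled Hep-3B, against 48.4, 58.6 and 58.7 CPM in their controls. In Huh-7 it had 13.2, 9.85 and 9.98 CPM with siARD1, against 165, 155 and 200 CPM in controls. The libraries labelled Hep-3B went against their tissue label in their markers: the summed level of 11 hepatocyte and hepatoma genes was 215 to 224 CPM with siARD1 and 403 to 488 CPM in controls, with 5 and 4 of the 11 under 1 CPM in every library. AFP stood at 0.26 to 0.345 CPM with siARD1 and 1.02 to 1.97 CPM in controls there. In Huh-7 the same sum was 27765 to 32300 CPM with siARD1 and 35662 to 37454 CPM in controls, with 0 of 11 under 1 CPM. These libraries are therefore called by their label throughout, and they are used with that doubt in every comparison of lines. Markers of other cell types summed to at most 174 CPM for fibroblasts (mostly LUM), 76.2 CPM for endothelium, 115 CPM for leukocytes (mostly LYZ) and 16.2 CPM for keratinocytes in any group, and CDH5, VWF and PTPRC under 1 CPM. In both groups labelled Hep-3B, 3 of the 5 endothelial genes were under 1 CPM in every library, and the remaining ones held most of that sum. The part of these cell types in the results was not tested. Huh-7 control 1 stood apart in the members: the median nuclear member lay 0.13 log2 units below the mean of its group there, against 0.08 and 0.03 above it in the other 2 controls. Genes with exon lengths up to 2305 bases lay 0.06 lower in the same library.

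The mitochondrial members include 2 pairs whose reading frames overlap on the same mRNA, shown because their reads can be split between genes in counting. On chrM of GRCh38, plus strand, MT-ATP6 begins inside MT-ATP8 (chrM:8527-8572) and MT-ND4 inside MT-ND4L (chrM:10760-10766). Capitals mark the start codon of the second gene and the stop codon of the first.
MT-ATP8 and MT-ATP6: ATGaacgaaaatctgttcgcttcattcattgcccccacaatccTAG
MT-ND4L and MT-ND4: ATGcTAA

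Some promoters of nuclear members hold binding motifs of known respiratory chain activators. RefSeq promoters (GRCh38.p14, 250 bases before to 50 after the annotated start) matched 71 of the 89 nuclear members. On either strand, the NRF1 motif was in 19 of them (26.8%, against 9.47% of 13724 promoters of coding genes in the tables). The ETS motif CCGGAAG, read by GABP, was in 22 (31.0% against 15.6%), and the YY1 core AANATGGC in 23 (32.4% against 8.39%). At least 1 of the 3 was in 46 (64.8% against 28.8%), while the median GC content was 62% and 64%. The NRF1 motif can be read on both strands at 1 place. A match is a description of letters and not a measured binding site. NDUFA5, COX7A2L, COX7C and NDUFV1, all called in the libraries labelled Hep-3B, held none of the 3 motifs. The 150 bases before the start are shown for 4 members with contrasting responses: SDHA and UQCRFS1 fell in the libraries labelled Hep-3B, SDHD rose there, and NDUFS3 rose in Huh-7. Capitals mark NRF1 or ETS matches, and the stretches lie at chr5:218170-218319 (plus), chr19:29213152-29213301 (minus), chr11:112086723-112086872 (plus) and chr11:47578924-47579073 (plus).
SDHA: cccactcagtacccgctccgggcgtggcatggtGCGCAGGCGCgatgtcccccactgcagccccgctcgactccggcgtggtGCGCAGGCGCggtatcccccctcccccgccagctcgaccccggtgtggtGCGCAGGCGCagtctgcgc
UQCRFS1: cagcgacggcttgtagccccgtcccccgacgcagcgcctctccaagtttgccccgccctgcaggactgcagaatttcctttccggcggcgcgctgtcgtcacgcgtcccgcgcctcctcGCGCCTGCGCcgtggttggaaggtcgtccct
SDHD: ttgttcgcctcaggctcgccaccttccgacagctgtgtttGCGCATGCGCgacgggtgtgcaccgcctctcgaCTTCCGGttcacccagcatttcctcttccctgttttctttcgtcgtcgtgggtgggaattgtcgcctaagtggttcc
NDUFS3: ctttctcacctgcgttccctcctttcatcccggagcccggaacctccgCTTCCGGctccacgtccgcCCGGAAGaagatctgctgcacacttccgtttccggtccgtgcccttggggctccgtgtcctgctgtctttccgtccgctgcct

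Levels per length (TPM, counts over merged exon length scaled to the same total in each library) separated the genomes. In libraries labelled Hep-3B the 13 mitochondrial mRNAs summed to 201345 TPM with siARD1 and 220340 TPM in controls, and the 89 nuclear members to 9876 and 10358 TPM. Huh-7 sums were 254643 TPM with siARD1 and 273124 TPM in controls for mitochondrial mRNAs, and 9944 and 10098 TPM for nuclear members. Merged exons overstate the length of nuclear genes with many annotated transcripts, which lowers their TPM. Without length scaling, mitochondrial mRNAs labelled Hep-3B summed to 54774 CPM with siARD1 and 61449 CPM in controls, and nuclear members to 6436 and 6970 CPM. In Huh-7 those sums were 70961 and 75408 CPM, and 7166 and 7193 CPM. MT-CO1, the catalytic subunit of complex IV, was the highest of the 13 in all 4 groups and MT-ND3, a short complex I subunit, the lowest. MT-CO1 averaged 49818 ± 1250 TPM with siARD1 and 53798 ± 2930 TPM in controls labelled Hep-3B (SD, n = 3 each), and MT-ND3 averaged 1534 ± 145 and 1667 ± 270 TPM. ATP5F1B, the catalytic beta subunit of the ATP synthase, headed the nuclear members in all 4 groups. Median nuclear levels were 63.2 TPM with siARD1 and 62.8 TPM in controls labelled Hep-3B, and 66.9 and 75.7 TPM in Huh-7.

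The first comparison asks what ARD1 knockdown did to these mRNAs in the libraries labelled Hep-3B. The edgeR quasi-likelihood test with Benjamini-Hochberg adjustment over 15762 genes called 32.2% of all genes at an adjusted p under 0.05, 16.8% higher and 15.3% lower. Among 85 nuclear members tested, 6 rose and 17 fell (27.1% called), with a median log2 fold change of -0.07 against -0.01 for all genes. Complex I had 3 rises and 8 falls of 36, complex II 1 and 3 of 8, complex III 0 and 2 of 10 (also 0 and 2 at an unadjusted p under 0.05), complex IV 1 and 3 of 14, and complex V 1 and 1 of 17. Groups of 30 nuclear members did not overlap, 6 higher and 24 lower with siARD1, beside 45.0% of all genes (22.7% higher and 22.3% lower). COX7A1, COX8C, NDUFA7 and ATP5MF-PTCD1 were too low to test, with at most 17 counts in any library. In counting, 27 nuclear members share exon bases with another gene on the same strand and 45 have pseudogenes named after them, so their reads may be split. In bulk RNA, fewer cells of a type and less RNA per cell cannot be told apart.

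**Figure D1:**
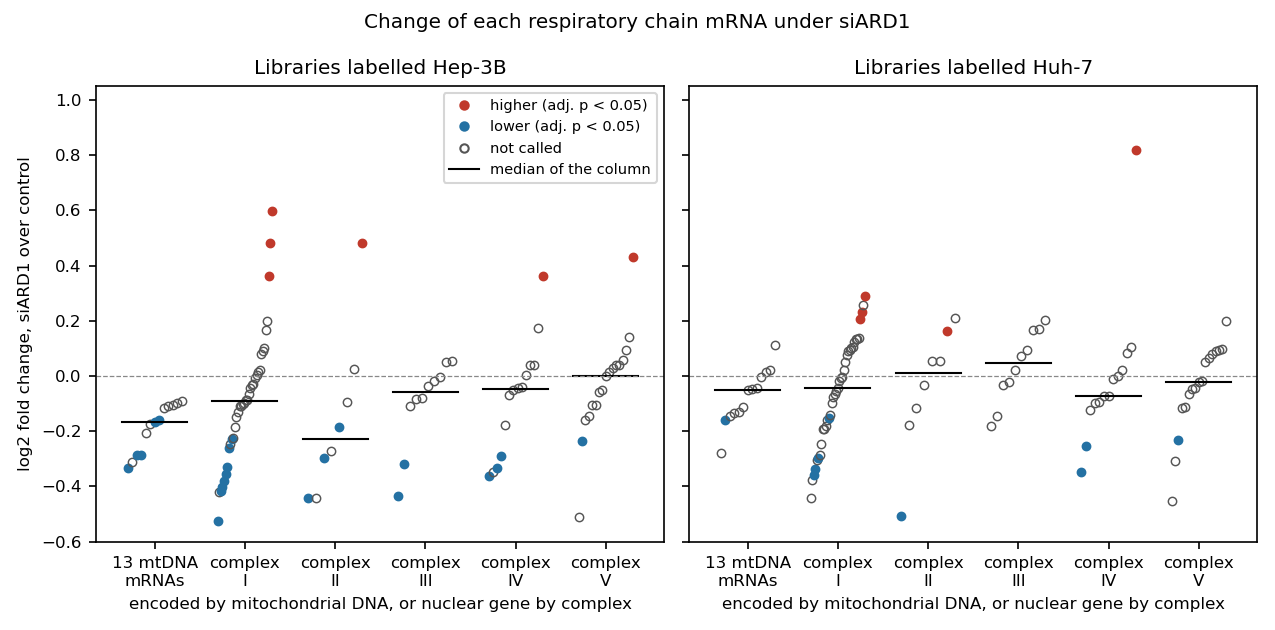
Each point is the log2 fold change (vertical axis, siARD1 over control) of 1 tested member, in columns for the 13 mitochondrial mRNAs and for nuclear members by complex, in libraries labelled Hep-3B (left) and Huh-7 (right). Filled points passed an adjusted p of 0.05 and bars are column medians. On the left 22 of 98 members fell and 6 rose (22.4% and 6.12%, beside 15.3% and 16.8% of all genes). On the right 9 of 98 fell and 5 rose (9.18% and 5.10%, beside 18.9% and 21.2% of all genes). With 1 library left out, nuclear members on the right had 1 to 9 rises and 6 to 17 falls. The 13 mitochondrial mRNAs all lay below 0 on the left.

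Among complex I members, NDUFA5, an accessory subunit of the matrix arm, rose most. NDUFA5 (chr7:123536997-123558255 in GENCODE v29) had 34.5, 34.8 and 34.5 CPM with siARD1, against 23.7, 20.2 and 24.5 CPM in controls, which is 0.60 higher on the log2 scale (SE 0.09, edgeR adjusted p = 0.000115). All 3 siARD1 libraries lay above all 3 controls. NDUFA6, an accessory subunit of the LYR family, had 25.2, 21.3 and 23.5 CPM with siARD1 against 17.6, 15.7 and 16.7 CPM in controls (0.48, SE 0.10). NDUFB5, a membrane arm subunit, was called at 0.36 (SE 0.13) with groups that overlapped. On the falling side, NDUFB7, an accessory subunit on the intermembrane-space face, had 18.5, 19.99 and 19.1 CPM with siARD1 against 31.1, 25.7 and 26.1 CPM in controls. That was the largest fall among the nuclear members called, by 0.52 on the log2 scale (SE 0.10, edgeR adjusted p = 0.00068). NDUFA8, another twin-CX9C protein, fell by 0.42, NDUFA3 by 0.40, NDUFA1 by 0.38, NDUFB4 by 0.36 and the accessory subunit NDUFS4 by 0.33. The core subunit NDUFV1, which binds NADH, fell by 0.26.

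Complex II subunits moved in opposite directions. SDHD, a membrane anchor, had 29.5, 29.2 and 26.7 CPM with siARD1 against 19.3, 21.7 and 20.2 CPM in controls (0.48, SE 0.09, edgeR adjusted p = 0.000705). SDHA, the flavoprotein that oxidises succinate, had 17.3, 13.8 and 14.97 CPM with siARD1 against 22.4, 22.8 and 17.45 CPM in controls (-0.44, SE 0.12, edgeR adjusted p = 0.00981). Neither gene's groups overlapped. SDHB, the iron-sulfur subunit, fell by 0.18 and its assembly factor SDHAF1 by 0.30, while SDHC, the other anchor, stood at -0.09 and was not called. SDHD exons overlap TIMM8B on the opposite strand, and TIMM8B stood at -0.22 (SE 0.10, not called).

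In complexes III to V, UQCRFS1, the Rieske iron-sulfur protein of complex III, had 85.7, 84.7 and 86.6 CPM with siARD1 against 124.8, 107.8 and 114.7 CPM in controls. Its fall was 0.44 (SE 0.07, edgeR adjusted p = 0.000133), with no overlap. UQCRC1, a core subunit of the same complex, fell by 0.32. In complex IV, COX7C had 72.0, 76.3 and 79.9 CPM with siARD1 against 105.8, 90.6 and 97.1 CPM in controls (-0.36, SE 0.07), and COX6B1 fell by 0.29. COX7A2L, a COX7A paralogue that joins complexes III and IV into supercomplexes, had 123.8, 117.0 and 129.1 CPM with siARD1 against 96.1, 94.8 and 96.9 CPM in controls, a rise of 0.36 (SE 0.06, edgeR adjusted p = 0.000353). In the ATP synthase, ATP5MG, a membrane subunit with at most 11.03 CPM, rose by 0.43 (SE 0.14) and the catalytic alpha subunit ATP5F1A fell by 0.23.

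Leaving out 1 library at a time ended some of these calls. The calls of NDUFS4, SDHB, SDHAF1, UQCRC1 and ATP5F1A were not checked in this way. Those of NDUFA5, SDHD, NDUFA6, COX7A2L, NDUFB7, UQCRFS1, NDUFA8, COX7C, NDUFB4, NDUFV1, COX6B1 and NDUFA4L2 held in all 6 fits. SDHA lost its call without control 2 (edgeR adjusted p = 0.054), NDUFA3 without control 1, siARD1 1 or siARD1 3 (highest 0.128) and NDUFA1 without control 1, siARD1 1 or siARD1 2 (highest 0.144). ATP5MG and NDUFB5 lost theirs in 4 of 6 fits each, control 2 and siARD1 1 among the libraries left out in both (highest 0.133 and 0.175). Fold changes in these libraries also ran with GC content, with a Spearman correlation of -0.37 over 10853 genes of at least 5 CPM and -0.32 over 77 nuclear members, given as a description. With the GC content and length trend removed, the calls of ATP5MG (0.19), NDUFB5 (0.20), NDUFA3 (-0.30), NDUFA1 (-0.25) and COX6B1 (-0.17) were lost.

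Mitochondrial mRNAs made up 5.40, 5.65 and 5.50% of counts in siARD1 libraries labelled Hep-3B, against 5.82, 6.33 and 6.15% in controls. The means were 5.52 ± 0.127% and 6.10 ± 0.257% (SD, n = 3 each) and the groups did not overlap. Wilson 95% intervals reached at most 0.0125 percentage points either way in any library, for counting error only. All 13 mRNAs had negative fold changes, from -0.33 to -0.09, with a median of -0.17, and 5 of 13 fell (38.5%), beside 15.3% of all genes called lower. No rise was called by edgeR or DESeq2, and 0 rises and 8 falls had an unadjusted p under 0.05. Groups of 7 mRNAs did not overlap, all 7 lower, beside 45.0% of all genes without overlap (22.3% lower). MT-ND4L, a membrane subunit of complex I, had 1523, 1509 and 1587 CPM with siARD1 against 2062, 1862 and 1898 CPM in controls (-0.33, SE 0.06, edgeR adjusted p = 0.000299). MT-ND4, read from the same mRNA through the overlap shown above, stood at -0.11 (SE 0.05) and was not called. MT-CO2, which takes electrons from cytochrome c, had 4128, 4292 and 4236 CPM with siARD1 against 5134, 5296 and 5006 CPM in controls (-0.29, SE 0.05). MT-ND2, a proton-pumping subunit, fell by 0.29 as well, and MT-CO1 and MT-CO3 by 0.17 and 0.16. MT-ATP8 and MT-ATP6, the other pair on 1 mRNA, stood at -0.31 (SE 0.16) and -0.10 (SE 0.07), neither called, and MT-CYB, the complex III cytochrome, at -0.20.

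That count of 5 rested on single libraries. It was 9 without control 1 and 3 without each of control 2, control 3, siARD1 1 and siARD1 3. MT-ND4L, MT-CO2 and MT-ND2 were called in all 6 of those fits. With the GC content and length trend removed it was 3 as well, and MT-CO1 and MT-CO3 were not called (-0.10 and -0.05).

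**Figure D2:**
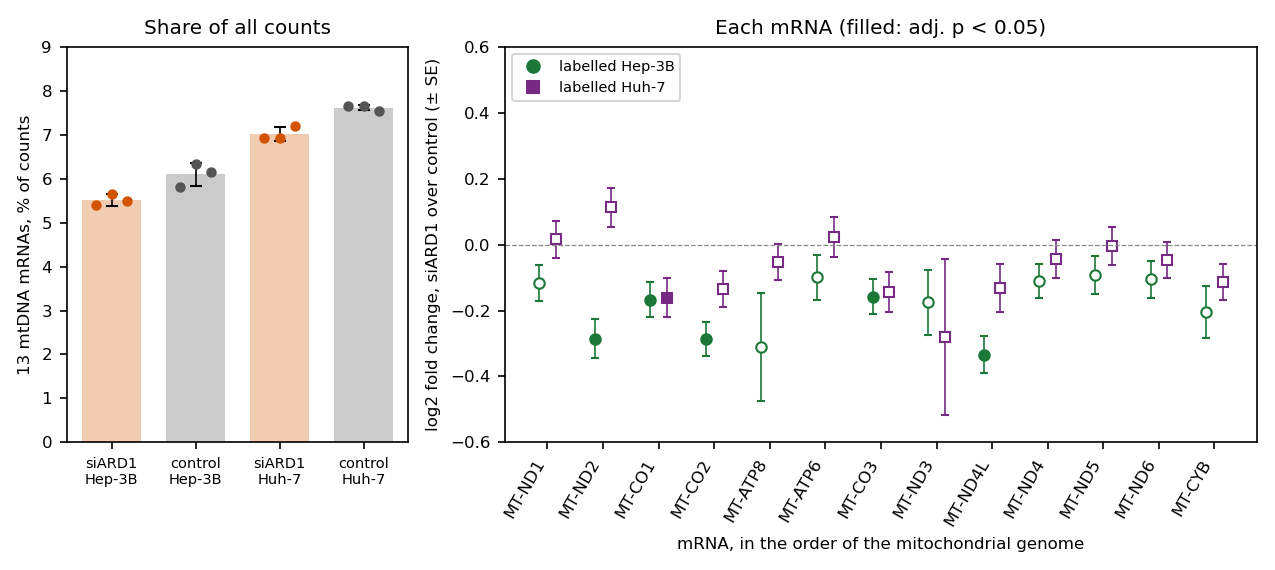
Left, percent of all counts from the 13 mitochondrial mRNAs in each library (points), with the group mean (bar) and SD, siARD1 left of control in each line. Right, log2 fold change (siARD1 over control, ± SE) of each mRNA in genome order, filled where the adjusted p was under 0.05. Every siARD1 library lay below its controls on the left, and MT-ND2 was at -0.29 in libraries labelled Hep-3B and 0.11 in Huh-7.

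In Huh-7 the edgeR test called 40.1% of 15919 genes, 21.2% higher and 18.9% lower. Of 85 nuclear members tested, 5 rose and 8 fell (15.3% called), with a median of -0.02 against -0.01 for all genes. Complex I had 3 rises and 4 falls of 37, complex II 1 and 1 of 8, complex IV 1 and 2 of 13, and complex V 0 and 1 of 17 (1 and 1 at an unadjusted p under 0.05). Of 10 complex III members edgeR called 0, and 2 rises had an unadjusted p under 0.05. Groups of 16 nuclear members did not overlap, 6 higher and 10 lower with siARD1, beside 50% of all genes (26.1% higher and 23.9% lower). COX6B2, COX7A1, COX8C and ATP5MF-PTCD1 were too low to test.

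Some core subunits of the complex I arm that carries electrons to ubiquinone were among the rises, while the core subunit NDUFV1 was among the falls (-0.15). NDUFS7, which holds the last iron-sulfur cluster, rose by 0.23 (SE 0.08), and NDUFS3, another subunit of that arm, by 0.21 (SE 0.07). SDHC rose by 0.16 (SE 0.06). NDUFA4L2 had 3.09, 1.92 and 2.82 CPM with siARD1 against 1.69, 1.77 and 1.01 CPM in controls (0.82, SE 0.27). Its exons overlap SHMT2 on the opposite strand, which averaged 372 CPM with siARD1 and 264 CPM in controls (0.49, SE 0.06). The strand setting of the counting is not given in the sources used here, so reads of that pair cannot be told apart.

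Falls in Huh-7 were led by SDHAF4, which binds SDHA before assembly. SDHAF4 had 8.77, 10.06 and 10.03 CPM with siARD1 against 14.98, 13.5 and 12.7 CPM in controls (-0.51, SE 0.11, edgeR adjusted p = 0.00102), without overlap. NDUFA5 had 33.4, 37.2 and 34.9 CPM with siARD1 against 45.05, 46.1 and 43.99 CPM in controls (-0.36, SE 0.07, edgeR adjusted p = 0.000289). These siARD1 libraries all lay below the controls, the reverse of NDUFA5 in the libraries labelled Hep-3B. COX6C, a small complex IV subunit, had 59.1, 55.1 and 61.6 CPM with siARD1 against 64.0, 81.4 and 77.7 CPM in controls (-0.35, SE 0.08). NDUFC1 fell by 0.34, NDUFA2 by 0.30, COX7C by 0.25, ATP5MC3, a gene for the ATP synthase c ring, by 0.23 and NDUFV1 by 0.15. NDUFC1 shares exon bases with MGARP on the same strand, which had 0.847 CPM with siARD1 and 3.23 CPM in controls (-1.92).

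Calls of SDHAF4, NDUFA5, COX6C, COX7C and ATP5MC3 held without each of the 6 libraries. NDUFC1 lost its call without control 3 (edgeR adjusted p = 0.0602), NDUFA2 without control 2 or siARD1 2 (highest 0.0709), SDHC without control 1, control 3 or siARD1 3 (highest 0.174) and NDUFA4L2 without control 3 or siARD1 1 (highest 0.119). NDUFS7, NDUFS3 and NDUFV1 lost theirs in 4 of 6 fits each, control 3 and siARD1 1 in common (highest 0.126, 0.117 and 0.179). Without control 1, 3 nuclear members rose and 17 fell. Counts were 8 and 6 without control 2, 1 and 6 without control 3, 3 and 8 without siARD1 1, 9 and 6 without siARD1 2, and 2 and 9 without siARD1 3. With no filter they were 8 and 10. Upper-quartile scaling gave 2 rises and 17 falls, and under it or DESeq2 the calls of NDUFS7, NDUFS3 and SDHC were lost. Over all genes, rises were 52.9% of calls in Huh-7 and 39.7% with upper-quartile scaling.

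Mitochondrial mRNAs made up 6.92, 6.94 and 7.19% of counts in Huh-7 siARD1 libraries, against 7.65, 7.66 and 7.55% in controls, again without overlap. The means were 7.02 ± 0.152% and 7.62 ± 0.0613% (SD, n = 3 each). Long RNAs held in the nucleus made up 0.0225 ± 0.00357% of counts with siARD1 and 0.0311 ± 0.00266% in Huh-7 controls. In libraries labelled Hep-3B they made up 0.0135 ± 0.0017% and 0.0139 ± 0.00184%. Among 3 of them tested in Huh-7, NEAT1 fell by 0.46 (SE 0.10) and the rest were not called. Without these RNAs the mitochondrial shares in Huh-7 were 7.02 and 7.62%, and their part was not tested further. MT-CO1 alone of the 13 passed edgeR's test, with 19086, 18382 and 20310 CPM with siARD1 against 20858, 21968 and 21775 CPM in controls (-0.16, SE 0.06, edgeR adjusted p = 0.0357), beside 18.9% of all genes called lower. It was not called without control 2, control 3, siARD1 1 or siARD1 2. Without control 1 the count was 4, and DESeq2 and upper-quartile scaling gave 4 and 5. No rise was called by edgeR or DESeq2 on the counts as deposited, and 0 rises and 3 falls had an unadjusted p under 0.05. Once the GC content and length trend was removed, MT-ND2 (0.15) and MT-ATP8 (0.26, against -0.05 otherwise) were called higher. The median of the 13 was -0.05, and 10 of 13 were negative. MT-ND3 had 272, 280 and 306 CPM with siARD1 against 240, 414 and 387 CPM in controls, so control 1 set the overlap of its groups.

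Fold changes of the members were set side by side between the lines. Across 84 nuclear members tested in both, Spearman's correlation of the log2 fold changes was -0.02 and across 13800 genes it was 0.04, descriptions over genes that share libraries. Of the nuclear members, COX7C and NDUFV1 fell in both lines, NDUFA5 rose in libraries labelled Hep-3B and fell in Huh-7, and NDUFA4L2 fell in libraries labelled Hep-3B and rose in Huh-7. A further 53 were called in neither.

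The difference itself was tested as an interaction over all 12 libraries, and edgeR called 31.4% of 17122 genes (16.2% higher and 15.2% lower in the libraries labelled Hep-3B). Of 99 members tested, 7 had a higher effect and 12 a lower effect there. NDUFA5 differed by 0.97 (SE 0.11), SDHD by 0.62 (SE 0.14), ATP5MG by 0.56 (SE 0.19), NDUFA6 by 0.38 (SE 0.13), COX7A2L by 0.36 (SE 0.09), COX6C by 0.32 and ATP5MC3 by 0.29. On the lower side stood NDUFA4L2 (-1.14, SE 0.20), NDUFA9 (-0.66, SE 0.22), SDHAF2 (-0.63, SE 0.21), UQCRFS1 (-0.59, SE 0.10) and NDUFA8 (-0.50, SE 0.12). NDUFB7, SDHA, NDUFS3, NDUFS4 and UQCRC1 followed. NDUFA9 and SDHAF2 were not called within either line alone. MT-ND2 was the only mitochondrial mRNA to pass (-0.38, SE 0.09, edgeR adjusted p = 0.0012): it had 2073, 2198 and 2173 CPM with siARD1 against 2415, 2760 and 2677 CPM in controls labelled Hep-3B, and 2664, 2771 and 3044 CPM against 2564, 2688 and 2589 CPM in Huh-7. Leaving out 1 of 12 libraries ended the call in 8 fits for COX6C, 7 for SDHA, 4 each for NDUFA6 and ATP5MG and 2 each for ATP5MC3, NDUFA9 and SDHAF2. NDUFS4 and UQCRC1 were not checked in this way. The count of higher effects was 3 without Hep-3B control 2 and 4 without Huh-7 control 2.

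**Figure D3:**
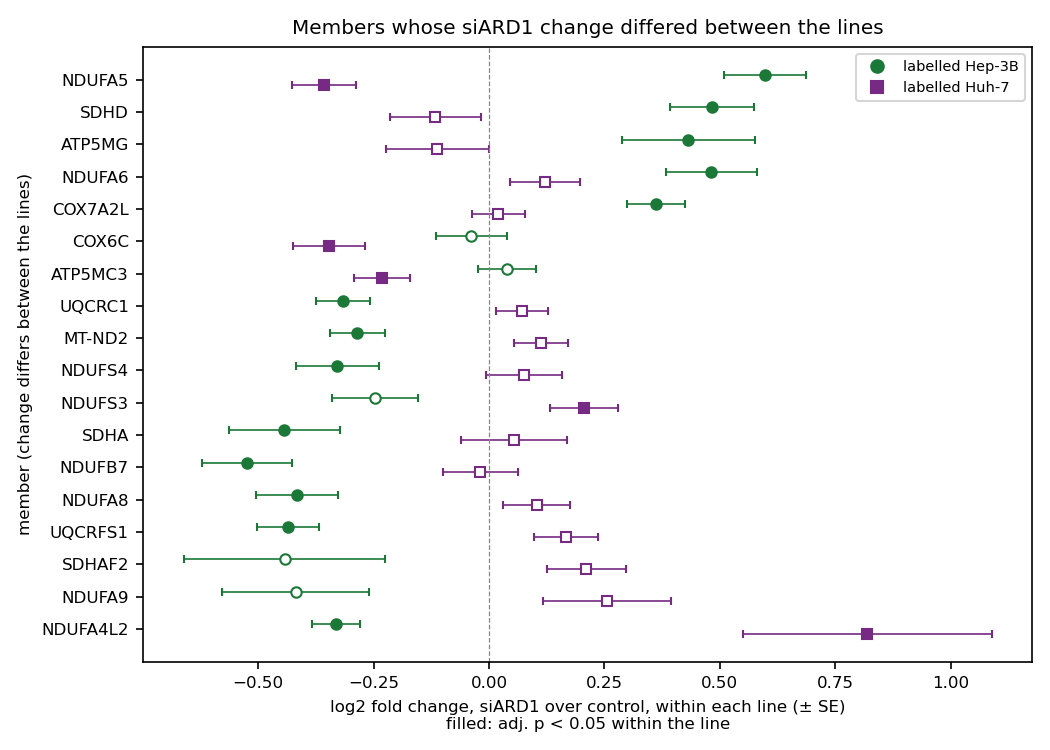
Log2 fold change (horizontal axis, siARD1 over control, ± SE) within libraries labelled Hep-3B (circles) and Huh-7 (squares) for 18 of the 19 members whose change differed between the lines. Filled symbols passed an adjusted p of 0.05 within their line. NDUFA5 stood at 0.60 and -0.36, and NDUFA4L2 at -0.33 and 0.82.

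The control libraries of the lines differed in most members, as they did in most genes. Among control libraries, edgeR called 80.7% of genes (40.0% higher and 40.7% lower in those labelled Hep-3B), and 34 members were higher and 44 lower of 99. NDUFA4L2, a paralogue of the complex IV subunit NDUFA4 known as a hypoxia-inducible gene, was 793-fold higher in controls labelled Hep-3B than in Huh-7 controls (log2 9.63, SE 0.11). NDUFA4 itself stood at 0.309 of the Huh-7 level (log2 -1.69, SE 0.07). Per length, NDUFA4L2 reached 1138, 1120 and 1144 TPM with siARD1 and 1363, 1391 and 1367 TPM in controls labelled Hep-3B, where NDUFA4 averaged 77.6 ± 2.14 and 72.7 ± 4.34 TPM. Its ratio to NDUFA4 was 14.6 ± 0.384 with siARD1 and 18.9 ± 1.18 in controls (SD, n = 3 each), without overlap. In Huh-7 that ratio was 0.0139 ± 0.00322 with siARD1 and 0.00755 ± 0.00249 in controls, with 37 to 60 and 23 to 39 counts of NDUFA4L2 per library.

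**Figure D4:**
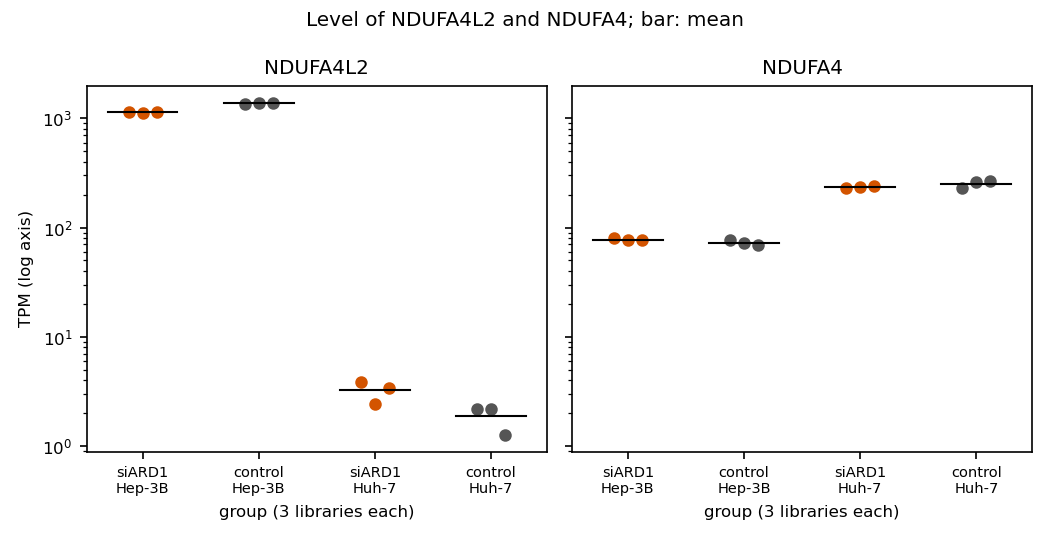
Level in TPM (vertical log axis) of NDUFA4L2 (left) and NDUFA4 (right) in each library, siARD1 left of control in each line, with group means as bars. NDUFA4L2 lay above 1000 TPM in every library labelled Hep-3B and at 1.26 to 3.89 TPM in Huh-7.

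In the libraries labelled Hep-3B, NDUFA4L2 fell with siARD1, to 835, 813 and 845 CPM against 1024, 1061 and 1053 CPM in controls (-0.33, SE 0.05, edgeR adjusted p = 0.000179), while SHMT2 on its opposite strand stood at -0.02. Other isoform sets kept their usual non-muscle forms. COX4I1 averaged 206 ± 4.42 TPM with siARD1 and 208 ± 9.23 TPM in controls labelled Hep-3B, and 215 ± 4.46 and 201 ± 8.28 TPM in Huh-7, whereas COX4I2, its lung form, was listed only in the table labelled Hep-3B and so is no member. COX6B2, known from testis, stayed under 1 CPM in every library of that table, and the muscle form COX7A1 held at most 6 counts in any library. COX6A1, COX7A2, COX7B and COX8A were not called in either line. Of the c-ring genes, ATP5MC2 led in all groups, at 162 and 172 TPM with siARD1 and in controls labelled Hep-3B and 124 and 135 TPM in Huh-7. UQCRH, the complex III hinge protein, had 294 ± 14.5 TPM with siARD1 and 299 ± 18.9 TPM in controls labelled Hep-3B, and its paralogue UQCRHL 5.48 and 5.35 TPM.

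Between control lines, complex I members had 8 higher and 21 lower of 37 in the libraries labelled Hep-3B. These counts, and those of mitochondrial mRNAs below, stand beside 40.0% of all genes higher and 40.7% lower (80.7% called). NDUFS8 (log2 -1.81), NDUFV1 (-1.56), NDUFA6 (-1.48) and the ATP synthase genes ATP5MC1 (-1.47) and ATP5F1A (-1.27) were lower there, and CYC1, the cytochrome of complex III (1.34), SDHA (1.03) and COX6A1 (0.90) higher. Mitochondrial mRNAs had 3 higher (MT-ND1 0.45, MT-CO1 0.23, MT-ND2 0.17) and 8 lower, from MT-ND3 (-0.99) and MT-CYB (-0.97) to MT-CO3 (-0.39). MT-ND6, the only mRNA of the light strand, stood at -0.84.

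Some genes that make and process mitochondrial RNA and DNA moved in opposite directions in the lines. Of 30 such genes, 3 rose and 12 fell in libraries labelled Hep-3B (median -0.24, against -0.01 for all genes), and 18 rose and 0 fell in Huh-7 by edgeR (median 0.20; 14 and 0 by DESeq2, and 19 and 0 at an unadjusted p under 0.05). Those shares, 50% and 60% called, stand beside 32.2% and 40.1% of all genes. In the test of the difference, 2 had a higher and 15 a lower effect in libraries labelled Hep-3B, 56.7% of the list beside 31.4% of all genes. SUPV3L1, the mitochondrial RNA helicase, had 31.3, 31.9 and 31.4 CPM with siARD1 against 43.2, 45.6 and 49.98 CPM in controls labelled Hep-3B (-0.55, SE 0.08), and 51.8, 51.2 and 53.05 CPM against 43.1, 40.9 and 39.6 CPM in Huh-7 (0.34, SE 0.07). The groups did not overlap in either line, and the effects differed by -0.87 (SE 0.10, edgeR adjusted p = 2.77e-07). TWNK, the mitochondrial DNA helicase, had 21.8, 21.7 and 19.1 CPM with siARD1 against 25.4, 27.9 and 30.1 CPM in controls labelled Hep-3B (-0.42), and 41.4, 44.7 and 40.2 CPM against 23.4, 25.02 and 25.2 CPM in Huh-7 (0.78, SE 0.08). TBRG4, which stabilises mitochondrial mRNAs, stood at -0.47 and 0.21, the DNA polymerase POLG at -0.40 and 0.17, and ELAC2, which cuts tRNA 3′ ends from the polycistron, at -0.30 and 0.36. MTPAP, the poly(A) polymerase, rose by 0.39 in Huh-7 and stood at -0.22 in libraries labelled Hep-3B, not called. The 3 rises in libraries labelled Hep-3B were TFAM, which packages and transcribes mitochondrial DNA (0.83), PNPT1 (0.48) and LRPPRC (0.26), named after their values were seen; TFAM stood at -0.02 in Huh-7. Huh-7 rises numbered 11 with upper-quartile scaling and 11 when both lines shared 1 fit, with 0 falls in each. That list and the others below were chosen with results of these data known. POLG lost its Huh-7 call without control 2 (edgeR adjusted p = 0.0612) and with upper-quartile scaling (0.105).

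Among assembly factors, 7 rose and 11 fell of 53 in libraries labelled Hep-3B (median -0.06), and 19 rose and 5 fell of 52 in Huh-7 (median 0.12). These are 34.0% and 46.2% called, beside 32.2% and 40.1% of all genes. In the difference, 5 had a higher and 15 a lower effect in libraries labelled Hep-3B (37.7% beside 31.4%). These shares, taken in either direction, lie near those of all genes. By direction, all genes had 16.8% higher and 15.3% lower in libraries labelled Hep-3B, and 21.2% and 18.9% in Huh-7. In the difference all genes had 16.2% higher and 15.2% lower. The factors were more one-sided than that in Huh-7 and in the difference. COA4, a complex IV factor, had 34.8, 38.9 and 33.6 CPM with siARD1 against 53.7, 45.5 and 50.4 CPM in controls labelled Hep-3B (-0.48, SE 0.08) and stood at 0.30 in Huh-7. BCS1L, which inserts the Rieske protein UQCRFS1 into complex III, stood at -0.40 and 0.41, and UQCRFS1 itself at -0.44 and 0.17 (not called). NDUFAF4, a complex I factor, rose in both, by 0.64 and 0.79, and HIGD1A, a hypoxia-inducible factor of complex IV, by 0.66 and 0.21. COA7 rose by 0.72 in Huh-7 and stood at 0.03 in libraries labelled Hep-3B. Rises numbered 12 in Huh-7 with upper-quartile scaling, where HIGD1A was not called (0.15), and HIGD1A also lost that call without control 1 or siARD1 1 (highest edgeR adjusted p = 0.061). In libraries labelled Hep-3B, leaving out siARD1 3 gave 3 rises, control 2 or siARD1 1 gave 4 each, and removing the GC content and length trend gave 4.

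**Figure D5:**
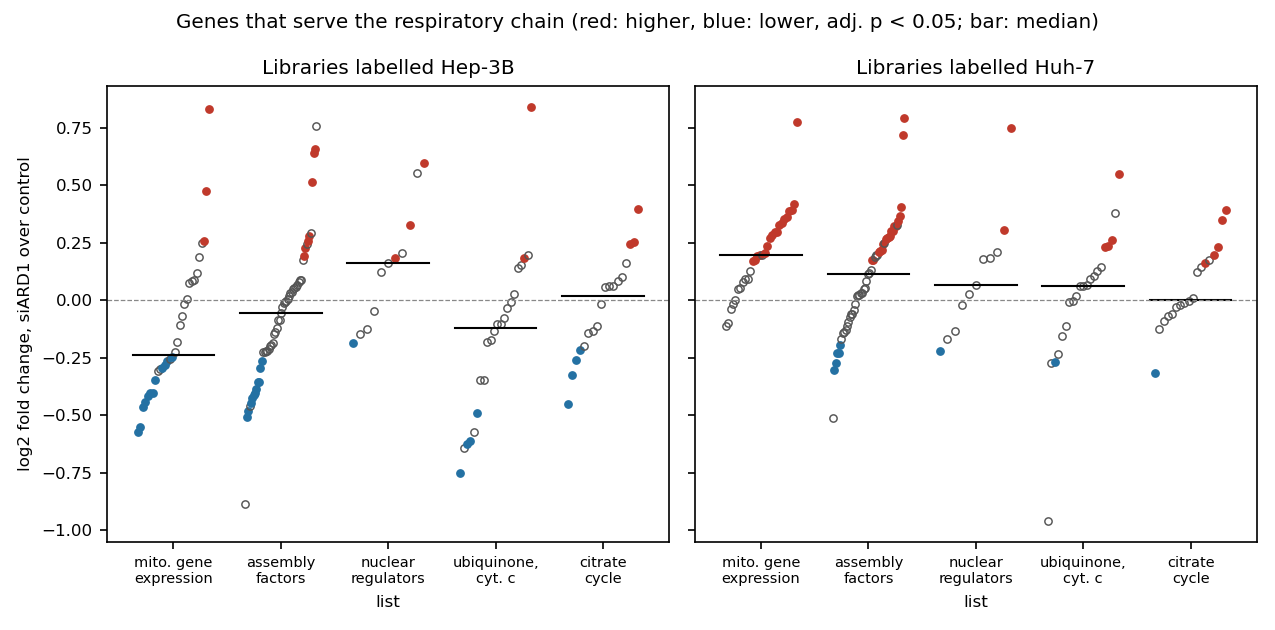
Each point is the log2 fold change (vertical axis, siARD1 over control) of 1 tested gene in 5 lists that serve the respiratory chain, in libraries labelled Hep-3B (left) and Huh-7 (right); red and blue points passed an adjusted p of 0.05 and bars are list medians. The list for mitochondrial gene expression has its median at -0.24 on the left and 0.20 on the right.

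Cytochrome c and ubiquinone carry electrons between the complexes. CYCS, the carrier between complexes III and IV, had 108.9, 101.2 and 119.6 CPM with siARD1 against 59.95, 62.2 and 61.8 CPM in controls labelled Hep-3B (0.84, SE 0.07, edgeR adjusted p = 7.41e-07). In Huh-7 it had 166, 184 and 178 CPM against 126, 152 and 161 CPM (0.26, SE 0.07), a call lost without siARD1 2 (edgeR adjusted p = 0.0606). COQ9, a lipid-binding protein of ubiquinone synthesis, fell by 0.49 in libraries labelled Hep-3B and rose by 0.24 in Huh-7, where 3 of 6 left-out fits, upper-quartile scaling and the GC content and length correction ended the call. PDSS1, which makes the ubiquinone tail, stood at -0.63 and 0.55, the first lost in 3 of 6 left-out fits (highest edgeR adjusted p = 0.124), and the kinase-like COQ8B at -0.61 and -0.27 (not called in Huh-7). Across the list, 2 rose and 4 fell of 22 in libraries labelled Hep-3B, and 4 rose and 1 fell of 21 in Huh-7. These are 27.3% and 23.8% called, beside 32.2% and 40.1% of all genes, and 22.7% differed between the lines, beside 31.4%.

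Among 11 tested nuclear activators of respiratory chain genes, 3 rose and 1 fell in libraries labelled Hep-3B and 2 rose and 1 fell in Huh-7. These are 36.4% and 27.3% called, beside 32.2% and 40.1% of all genes. PPARGC1B, a coactivator, had 22.2, 17.7 and 19.0 CPM with siARD1 against 11.4, 11.7 and 15.6 CPM in controls labelled Hep-3B (0.60, SE 0.13). PPRC1, a related coactivator, had 72.2, 77.2 and 75.4 CPM with siARD1 against 41.6, 44.6 and 47.4 CPM in Huh-7 controls (0.75, SE 0.06, edgeR adjusted p = 9.76e-09), and stood at -0.15 in libraries labelled Hep-3B, a difference of -0.88 (SE 0.11). GABPB1, a subunit of the ETS factor GABP, rose by 0.33 and 0.31. SP1 fell by 0.22 in Huh-7, and TFE3 by 0.19 in libraries labelled Hep-3B. The GABPB1 and TFE3 calls in libraries labelled Hep-3B were lost in 3 and 4 of 6 left-out fits and with the GC content and length trend removed.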

How the data were processed

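Per the labels, total RNA came from Trizol extraction, ribosomal RNA was removed and the library kit kept strand. The authors deposited whole-number read counts per gene, 1 table per line. The submitters' processing notes name cutadapt 4.6, STAR 2.7.11b and GRCh38. Which program counted the reads, with which annotation and strand option, was not given in these sources. The tables list 25720 and 25714 genes, of which 23740 and 23662 were found in GENCODE v29. Mitochondrial rRNAs were listed for neither line. A set of 13 nuclear copies of mitochondrial genes was not found by symbol for either line, so neither kind was analysed here.

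Each line was fitted with edgeR 4.0.16 (R 4.3.3; TMM scaling, robust quasi-likelihood F-test, filter at a minimum count of 10 and total of 15) on its 6 libraries, with Benjamini-Hochberg adjustment over all genes tested and a threshold of 0.05. The SE is the log2 fold change divided by the root of F. Differences between lines came from 1 fit of 12 libraries over the 22730 shared genes. TPM used merged GENCODE v29 exon lengths, which overstate the length of genes with many annotated transcripts. The fits were tested on simulated counts with 1 dispersion for all genes and no GC content or length trend. That test does not cover such trends in these libraries. DESeq2 1.42.0, other scalings and filters, GC content and length correction (mgcv 1.9.3), a replicate block and leaving out each library were alternatives.

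Named members were at most 8 calls each way per line with a mean of at least 5 CPM, 6 each way for the difference, the 13 mitochondrial mRNAs and isoform sets, with at most 3 genes per list and line; other names were chosen after their values were seen. The values of 1 member are not reported here, though counts include it. The members and lists were chosen with earlier results of these data known. Libraries held about 17327600 to 25960200 counts, and intervals on shares cover counting error only.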

Additional observations from a re-analysis of the deposited data

Results flagged for a closer look

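The siARD1 effect differed between the libraries labelled Hep-3B and Huh-7 by a test of the difference itself (edgeR interaction, adjusted over 17122 genes) for 7 members with a higher and 12 with a lower effect in libraries labelled Hep-3B. These 19 of 99 members stand beside 31.4% of all genes called (16.2% higher and 15.2% lower). On the log2 scale, the named ones with a higher effect in libraries labelled Hep-3B were NDUFA5 (0.97), SDHD (0.62), ATP5MG (0.56), NDUFA6 (0.38), COX7A2L (0.36) and COX6C (0.32). Those with a lower effect there were NDUFA4L2 (-1.14), NDUFA9 (-0.66), SDHAF2 (-0.63), UQCRFS1 (-0.59) and NDUFA8 (-0.50). Within either line alone, NDUFA9 and SDHAF2 were not called. With 1 library left out, calls held in 4 of 12 fits for COX6C, 8 each for ATP5MG and NDUFA6 and 10 each for NDUFA9 and SDHAF2. In Huh-7, NDUFA4L2 lay at 1.26 to 3.89 TPM, and its reads cannot be told apart from those of SHMT2 on the opposite strand. The hepatocyte markers of the libraries labelled Hep-3B, at most 488 CPM summed, lay below the 27765 CPM or more of Huh-7, and their part in these differences was not tested.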

How the results depend on the processing

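With the GC content and length trend removed, MT-ATP8 in Huh-7 reversed to 0.26, and to 0.26 with the replicate block too, against -0.05 (not called) otherwise; no called result changed sign. In libraries labelled Hep-3B, falls among nuclear members numbered 10 at a false discovery rate of 0.01, and falls among mitochondrial mRNAs 8 with upper-quartile scaling, 3 at a rate of 0.01 and 3 with the GC content and length trend removed, with or without the replicate block; the median of those mRNAs was then -0.098. In Huh-7, rises among nuclear members numbered 2 with upper-quartile scaling, DESeq2 or both lines in 1 fit, 8 with no filter and 1 at 0.01, and falls 17 with upper-quartile scaling. Huh-7 mitochondrial falls numbered 2 with RLE factors or no filter, 5 with upper-quartile scaling (median -0.11), 4 with DESeq2, 3 at 1 CPM in 3 libraries or in 1 fit, and 0 at 0.01 or with the replicate block, while 2 rose with the trend removed, with or without the block. Higher effects in libraries labelled Hep-3B numbered 3 at 0.01. Leaving out 1 library gave 3 to 9 mitochondrial falls in libraries labelled Hep-3B, 1 to 9 nuclear rises, 6 to 17 nuclear falls and 0 to 4 mitochondrial falls in Huh-7, and 3 to 8 higher effects; the median of nuclear members in Huh-7 ran from -0.059 to 0.036, above 0 without control 2, control 3 or siARD1 2. With upper-quartile scaling, rises were 44.9% of calls in libraries labelled Hep-3B (52.3% otherwise) and 39.7% in Huh-7 (52.9% otherwise). Apart from the alternatives' own construction (threshold, fewer samples), the cause was not tested. Same-numbered siARD1 and control libraries correlated at 0.034, 0.065 and 0.064 in the libraries labelled Hep-3B and 0.052, -0.065 and 0.007 in Huh-7. Different-numbered ones ran from -0.055 to -0.010 and from -0.103 to 0.108. All values were small and the numbers were not taken as pairs, though same-numbered values lay above the others in libraries labelled Hep-3B. The replicate block ended the Huh-7 MT-CO1 call (edgeR adjusted p = 0.0767).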

Other observations

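Genes of the tricarboxylic acid cycle, which supplies NADH and succinate to the chain, gave the following counts. Of 18 tested, 3 rose and 4 fell in libraries labelled Hep-3B (38.9% called, beside 32.2% of all genes), and 5 rose and 1 fell in Huh-7 (33.3%, beside 40.1%). PDHB, a pyruvate dehydrogenase subunit, had 66.6, 68.2 and 68.9 CPM with siARD1 against 91.0, 91.5 and 95.9 CPM in controls labelled Hep-3B (-0.45, SE 0.06, edgeR adjusted p = 5.8e-05). DLD, the dihydrolipoamide dehydrogenase shared by several complexes, had 195.5, 183.7 and 203.7 CPM with siARD1 against 145.8, 141.8 and 154.3 CPM there (0.40, SE 0.06), and stood at -0.03 in Huh-7. IDH3B fell by 0.33 in libraries labelled Hep-3B. In Huh-7, IDH3A rose by 0.35 and DLST by 0.23, and SUCLG1, a succinyl-CoA ligase subunit, fell by 0.31. The effects differed between lines for 7 of 18 (38.9%, beside 31.4% of all genes), 3 higher and 4 lower in libraries labelled Hep-3B, among them DLD (0.45), SUCLG1 (0.40), IDH3B (-0.45) and PDHB (-0.31), the last lost without Huh-7 control 2 or siARD1 3.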
